A study of Caenorhabditis elegans with 12 samples.

Results

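The abu and pqn genes of Caenorhabditis elegans are named for proteins with prion-like, low-complexity stretches. The name pqn marks a prion-like domain rich in glutamine and asparagine. The name abu stands for activated in blocked unfolded protein response. The abu genes were described as induced by endoplasmic reticulum (ER) stress in worms that cannot switch on the IRE-1 and XBP-1 arm of that response. They encode cysteine-rich proteins that resemble the engulfment receptor CED-1. Several abu and pqn paralogues are also known as products of the pharynx that build its cuticle lining, and their transcripts cycle with the moult. The members were all genes whose symbol in the platform annotation is abu or pqn followed by a number, measured by probe sets assigned to that gene only. This gave 58 genes, 11 abu and 47 pqn, of 17118 genes with a probe set of their own. Members were read by 93 probe sets, 45 of them of a type that the array's design marks as shared or cross-hybridising. The composition that gives the pqn genes their name was not checked here.

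RNA came from whole, synchronized first-stage (L1) larvae that had hatched without food and were collected 24 h after plating, then held for 5 h in buffer. Of 12 single-colour Affymetrix arrays, 3 each were from wild type (N2) in DMSO vehicle, wild type in tunicamycin, manf-1(tm3603) mutants in vehicle and manf-1(tm3603) mutants in tunicamycin. Tunicamycin blocks N-glycosylation and so causes ER stress. All 4 groups shared the starvation and the DMSO. The manf-1 gene encodes a secreted, ER-resident relative of the vertebrate neurotrophic factor MANF. The labels give the tunicamycin as 5 µg/mL in one field and 5 µg/µL in another, so the dose is not settled. Nothing in the labels says that the 3 arrays of a group came from separate cultures, and p-values then measure only the spread between these samples. The number of arrays limits the precision.

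Signals are log2 values. No 2 arrays were identical, and arrays of a group correlated with Spearman's rho between 0.917 and 0.957. The 4 arrays numbered 2 stood apart in control transcripts, where the 3′ minus 5′ signal lay between -0.32 and -0.20 on the log2 scale against 0.02 to 0.38 on the other arrays. The genotype labels could not be checked through manf-1, for which no probe set was named. The treatment labels were checked through hsp-4, the ER chaperone BiP. Its log2 signals were 8.68, 7.37 and 8.66 in wild type with vehicle, 11.53, 11.62 and 11.22 in wild type with tunicamycin, 8.45, 8.25 and 8.16 in mutants with vehicle, and 11.97, 11.73 and 11.88 in mutants with tunicamycin. It rose by 3.22 in wild type and by 3.57 in mutants (SE 0.30 for both, limma adjusted p = 0.000142 and 3.34e-05).

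Of the 58 members, 50 passed a filter on low values, 10 abu and 40 pqn. A probe set was kept if 3 or more arrays each gave it a signal over that array's 40th percentile, which left 10844 genes. The other 8 were abu-2, pqn-8, pqn-10, pqn-13, pqn-16, pqn-25, pqn-63 and pqn-82, whose signals lay between 1.53 and 5.73 on all arrays. Bacterial and yeast control probe sets, which stand for background, had a median log2 signal of 2.23, with 95% of their values under 3.34. Of the members that passed, 38 were above 3.34 on every array and 12 were under it on at least 1. The means of abu-3, 3.31, and of pqn-26, 3.17, were below it. Signals of different probe sets depend on their probes and are not ranked between genes.

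**Figure D1:**
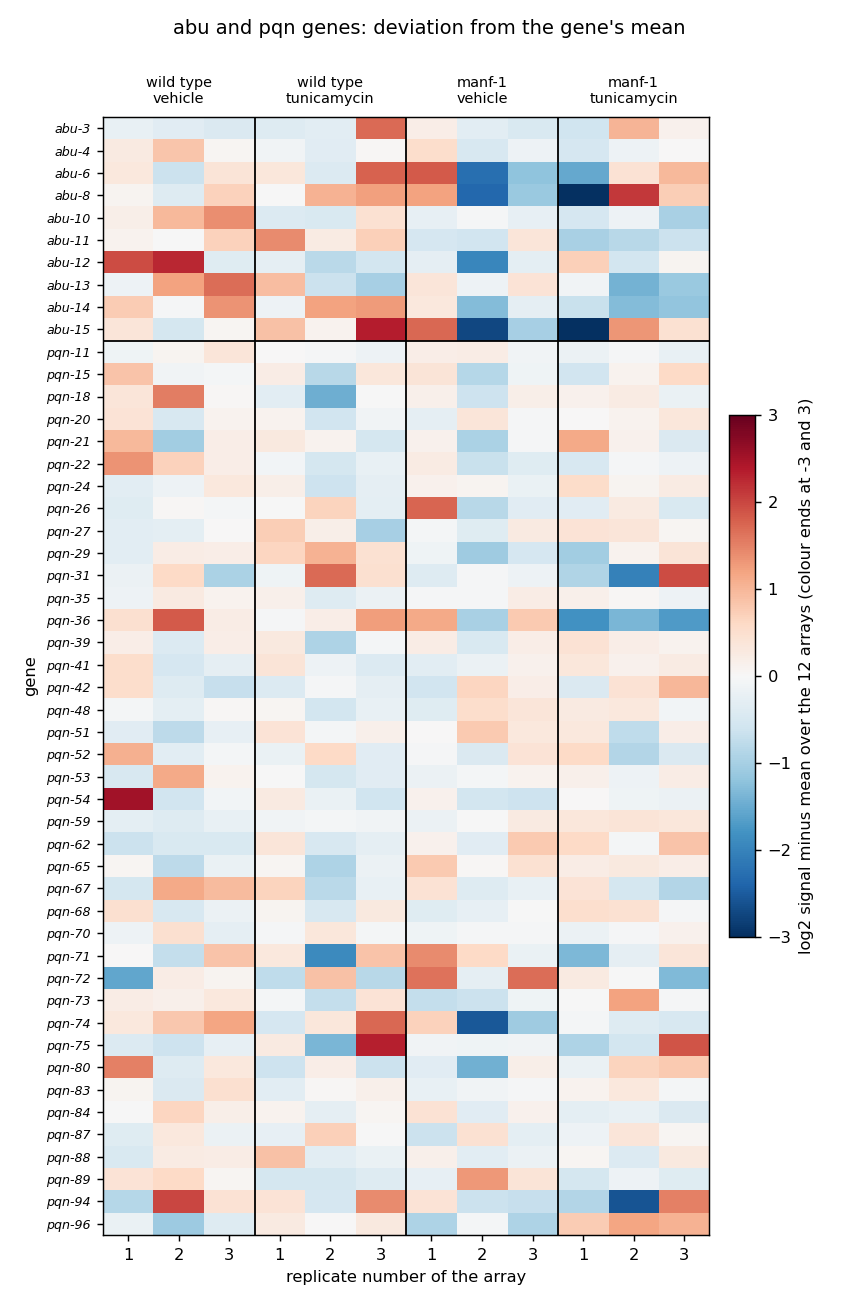
Colour gives, for the 50 members past the filter (rows) on each of the 12 arrays (columns, grouped by genotype and treatment), the log2 signal minus the gene's mean over all arrays. The 10 abu genes at the top hold more blue than red in the mutant columns, most clearly abu-10, abu-11 and abu-14. In abu-3, abu-6, abu-8 and abu-15 the mutant columns are mixed, and abu-6, abu-8 and abu-15 swing widely within the mutant groups. The gene pqn-96 near the bottom is red in mutants with tunicamycin.

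No abu gene passed the test for tunicamycin, and the abu genes had no common direction with it. With tunicamycin in wild type, 0 of 10 abu genes passed limma's test (adjusted p under 0.05, over all probe sets), where 0.397% of all genes did. At an unadjusted p under 0.05, 2 were lower, and 8.04% of all genes reached it. Their log2 changes ran from -1.83 to 1.15 with a median of 0.30, against -0.02 over all genes, and 4 of 10 were below 0, where 52% of all genes were. In mutants 0 of 10 passed, where 1.13% of all genes did, and 0 reached an unadjusted p under 0.05, where 9.2% did. There the changes ran from -1.08 to 0.93 with a median of 0.04, and 5 of 10 were below 0, where 51.9% of all genes were. Averaged over genotypes 0 of 10 passed, 2 were lower at an unadjusted p under 0.05 (11.5% of all genes reached it), and 6 of 10 were below 0 (52.4%). The regulators reported for abu genes were among the genes of the stress response measured beside them. The hsp-3 transcript, another BiP, rose by 1.81 in wild type and 2.06 in mutants (adjusted p = 0.000345 and 5.10e-05). The transcript of xbp-1, the transcription factor spliced by IRE-1, rose by 0.94 averaged over genotypes (adjusted p = 0.00847). That of ced-1, reported to be needed for abu induction, had an averaged change of -0.35 (SE 0.30, adjusted p = 0.766). The receptor gene octr-1 did not pass the filter. Of the 7 genes of that list past the filter, 3 rose and 0 fell in the averaged comparison, where 2.02% of all genes were called.

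The abu genes were lower in mutants than in wild type as measured, with no single gene past the test. Averaged over treatments, 10 of 10 abu genes had a value below 0, where 45.8% of all genes did, and their median was -0.73 against 0.03 for all genes. The 40 pqn genes had 20 values below 0 and a median of 0.01. With limma 0 of 10 abu genes passed (0.0184% of all genes did), and 3 were lower at an unadjusted p under 0.05 (6.31% of all genes reached it). With vehicle 9 of 10 were below 0 (46.9% of all genes), with a median of -0.67. Of them 0 passed the test (0.00922% of all genes), and 3 were lower at an unadjusted p under 0.05 (5.4%). With tunicamycin 9 of 10 were again below 0 (46.3%), with a median of -0.62. Of them 0 passed the test (0.0277%), and 2 were lower at an unadjusted p under 0.05 (5.8%). The vehicle and tunicamycin comparisons use separate arrays, and the averaged comparison reuses both. Without the low-value filter 11 of 11 abu genes were below 0 in the averaged comparison. The gene this adds, abu-2, read 1.88 to 2.33, around the background median of 2.23, so its sign carries little weight. Abu genes share sequence, and 7 of the 10 were read by shared or cross-hybridising probe sets. The other 3 were also below 0, at -1.47 in abu-14, -0.72 in abu-10 and -0.0029 in abu-3. The value of abu-3 is close to 0, and its mean signal lay within the background range. The class is described by these values and was not tested as a list.

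The median over the 10 abu genes was 5.79, 5.67 and 5.94 on the wild-type vehicle arrays and 5.37, 5.17 and 5.86 on the wild-type tunicamycin arrays. It was 4.90, 3.92 and 4.90 on the mutant vehicle arrays and 4.08, 4.62 and 4.64 on the mutant tunicamycin arrays. All 6 wild-type arrays lay above all 6 mutant arrays in this median. The log2 of the summed abu signal overlapped between genotypes, at 9.14 to 9.68 and 9.29 to 10.41 in wild type with vehicle and tunicamycin, and 7.55 to 10.17 and 7.83 to 9.76 in mutants. The median over the 40 pqn genes stayed between 6.72 and 7.002 on all 12 arrays. In whole larvae, fewer cells of a type and less RNA per cell cannot be told apart.

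Most markers of the pharynx and of the moult also had values below 0 in mutants, as did most markers of several other tissues. Averaged over treatments, 6 of 7 pharynx muscle markers were below 0 (median -0.52), where 45.8% of all genes were. They ran from myo-5, a pharyngeal myosin, at -1.32 to pha-4, the pharynx organ selector, at 0.03. Of 12 pharynx gland and pharyngeal cuticle markers past the filter, 11 were below 0 (median -0.23), with dod-6 at -1.22 and hlh-6, a gland transcription factor, at 0.74. Of 15 genes of moulting and the cuticle cycle, 13 were below 0 (median -0.35), as were 5 of 6 hypodermis markers (median -0.46). None of these markers passed the test in that comparison (0.0184% of all genes did). At an unadjusted p under 0.05, 6 of the moulting genes, 1 pharynx muscle gene, 2 gland and cuticle genes and 1 hypodermis gene were lower. Of all 10844 genes 307 were lower at that p, and 6.31% reached it in either direction. The log2 of the summed pharynx muscle signal was 9.49 to 9.76 in wild type with vehicle, 9.67 to 11.12 in wild type with tunicamycin, 9.28 to 9.79 in mutants with vehicle and 8.43 to 10.47 in mutants with tunicamycin. For the gland and cuticle markers the 4 ranges were 10.0004 to 10.13, 9.98 to 10.44, 9.47 to 10.08 and 9.69 to 9.90. For the moulting genes they were 10.66 to 11.18, 9.76 to 11.20, 10.29 to 10.67 and 9.61 to 10.26. Below 0 were also 5 of 7 intestine markers (median -0.10), 4 of 5 body wall muscle markers (-0.04), 3 of 6 neuron markers (0.04) and 2 of 2 germline markers (-0.24). Whether pharynx content or the stage of the moult had a part in the lower abu signals was not tested.

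**Figure D2:**
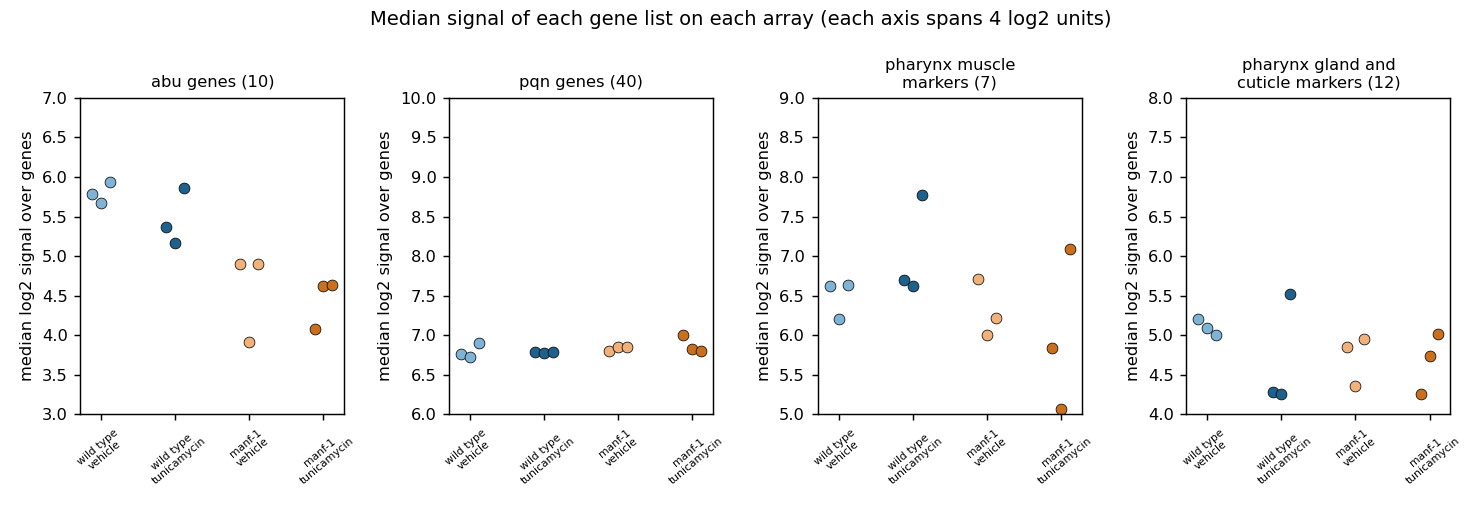
Points are the 12 arrays in their 4 groups, and the vertical axis is the median log2 signal over the genes of a list, on axes that each span 4 log2 units. The abu median is higher on every wild-type array (5.17 to 5.94) than on any mutant array (3.92 to 4.90), the pqn median is nearly level, and the pharynx lists overlap between genotypes.

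The gene abu-14, needed for a normal pharyngeal cuticle, had the abu genes' largest averaged difference. Its signals were 6.81, 6.02 and 7.40 in wild type with vehicle and 5.91, 7.27 and 7.32 in wild type with tunicamycin. They were 6.36, 4.76 and 5.79 in mutants with vehicle and 5.38, 4.76 and 4.86 in mutants with tunicamycin. With tunicamycin the genotypes did not overlap, and with vehicle they did. Averaged over treatments abu-14 differed by -1.47 (SE 0.36, adjusted p = 0.435), and with tunicamycin by -1.83 (SE 0.51, adjusted p = 0.620). A second probe set of abu-14 read 8.20, 6.01 and 7.21, then 5.82, 6.34 and 6.53 in wild type, and 4.90, 3.25 and 4.49, then 4.33, 5.36 and 3.67 in mutants, in the same order of treatments. On that probe set all 6 mutant arrays were below all 6 wild-type arrays, as on 0.156% of the probe sets past the filter. Its averaged difference was -2.36 (SE 0.42, adjusted p = 0.133).

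In abu-11, a gene linked to lifespan through the sirtuin sir-2.1, the signals were 5.42, 5.31 and 6.01 in wild type with vehicle and 6.73, 5.55 and 6.02 in wild type with tunicamycin. Mutants gave 4.82, 4.75 and 5.68 with vehicle and 4.34, 4.47 and 4.66 with tunicamycin. The tunicamycin groups were separate, at a difference of -1.61 (SE 0.40, adjusted p = 0.462), and the vehicle groups overlapped. The averaged difference was -1.05 (SE 0.29, adjusted p = 0.528). Of the 50 members, 3 were higher and 4 lower without overlap in stressed mutants, where 5.4% and 5.34% of all genes were. With vehicle 4 were higher and 2 lower without overlap, where 6.45% and 4.5% were.

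In abu-12 the wild-type vehicle arrays were spread widely. They read 6.50, 6.80 and 4.17, against 4.26, 3.71 and 3.99 with tunicamycin. Mutant arrays read 4.27, 2.58 and 4.23 with vehicle and 5.25, 3.99 and 4.62 with tunicamycin. The high values are on 2 wild-type vehicle arrays, and the third lies among the other groups. Its change with tunicamycin was -1.83 in wild type (SE 0.64, adjusted p = 0.477) and 0.93 in mutants (SE 0.64, adjusted p = 0.785). The interaction of genotype and tunicamycin was 2.76 (SE 0.91, adjusted p = 0.995). The genotype difference with vehicle, -2.13 (adjusted p = 0.888), rests on the same wild-type vehicle arrays.

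The gene abu-10 read 5.42, 6.22 and 6.62 in wild type with vehicle and 4.82, 4.79 and 5.70 with tunicamycin. In mutants it read 4.99, 5.21 and 4.98 with vehicle and 4.75, 5.09 and 4.27 with tunicamycin. All 3 wild-type vehicle arrays were above the mutant vehicle arrays, at a difference of -1.03 (SE 0.41, adjusted p = 0.905). On a second probe set of abu-10 these groups overlapped, and the difference was -0.57 (SE 0.36, adjusted p = 0.962). The gene abu-13 had its highest signals, 5.12 and 5.59, on wild-type vehicle arrays and its lowest, 2.50, in mutants with tunicamycin, and its averaged tunicamycin change was -1.12 (SE 0.40, adjusted p = 0.256). The signals of abu-4 lay between 3.38 and 4.72 and those of abu-3 between 2.70 and 5.02. The averaged genotype difference was -0.25 for abu-4 and -0.0029 for abu-3, whose sign turned when any of 6 arrays was left out.

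**Figure D3:**
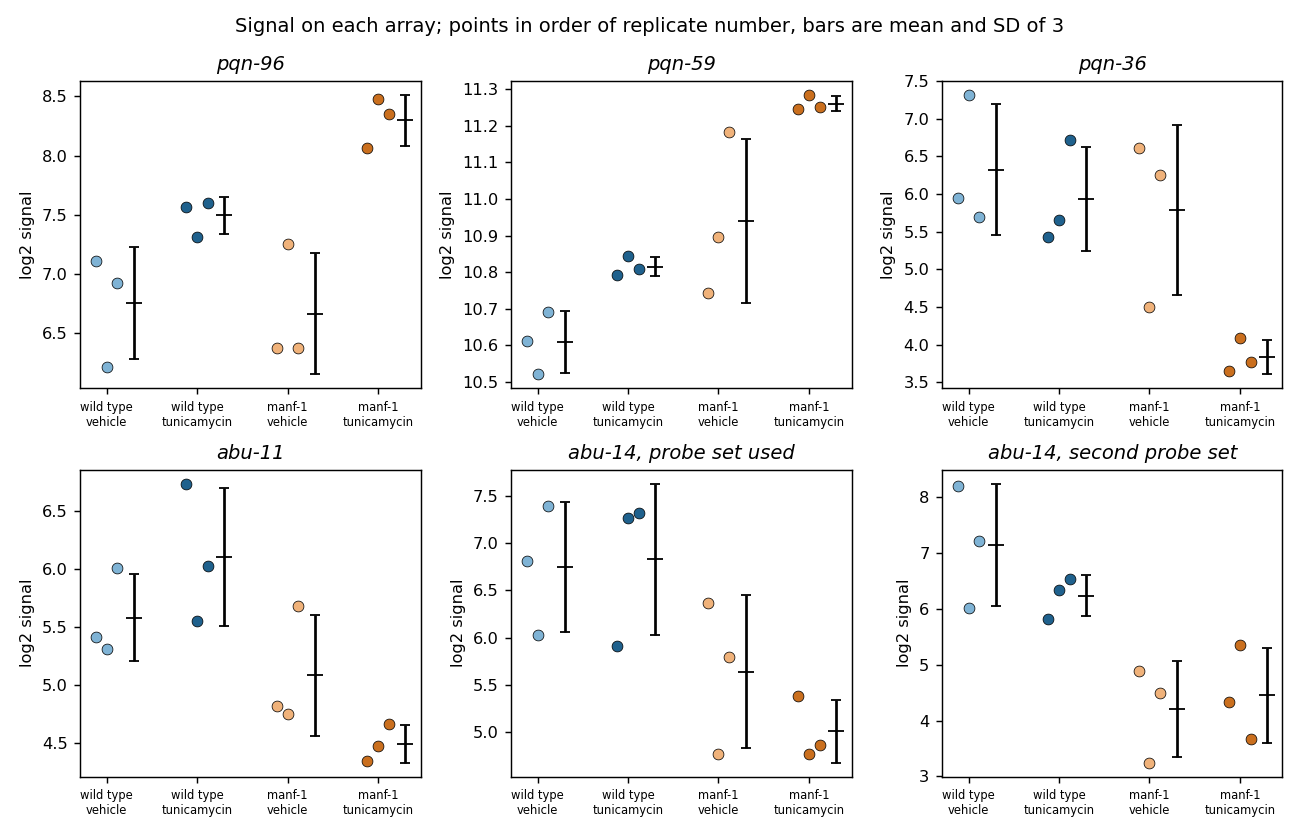
Each panel shows the log2 signal of a probe set on the 12 arrays in 4 groups, with the mean and SD of 3 beside the points, on axes that do not start at 0. In pqn-96 the 3 mutant tunicamycin arrays (8.06 to 8.48) are above the other arrays, in pqn-36 they (3.66 to 4.09) are below, and on the second abu-14 probe set both mutant groups are below both wild-type groups.

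The genes abu-6, abu-8 and abu-15 carried the widest spread. They lie near each other in the genome in the RefSeq gene order of assembly WBcel235. There abu-15, abu-6 and abu-7 follow each other with no gene between them, and abu-8 comes after 6 other genes. The abu-7 gene has no probe set of its own. In wild type with vehicle abu-6 read 7.59, 6.64 and 7.67, and with tunicamycin 7.62, 6.87 and 9.04. In mutants it read 9.12, 5.02 and 6.06 with vehicle and 5.74, 7.72 and 8.25 with tunicamycin. Wild-type values lay between the highest and the lowest mutant values. For abu-8 the wild-type signals were 6.52, 6.06 and 7.13, then 6.42, 7.48 and 7.66, and the mutant signals 7.64, 4.08 and 5.34, then 3.21, 8.57 and 7.17. For abu-15 they were 6.16, 5.28 and 5.86, then 6.69, 5.91 and 8.15 in wild type, and 7.51, 3.08 and 4.82, then 2.80, 7.12 and 6.26 in mutants. All of them were low on mutant vehicle array 2 and mutant tunicamycin array 1. The ranges over the 12 arrays were 4.10, 5.35 and 5.36 log2 units.

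**Figure D4:**
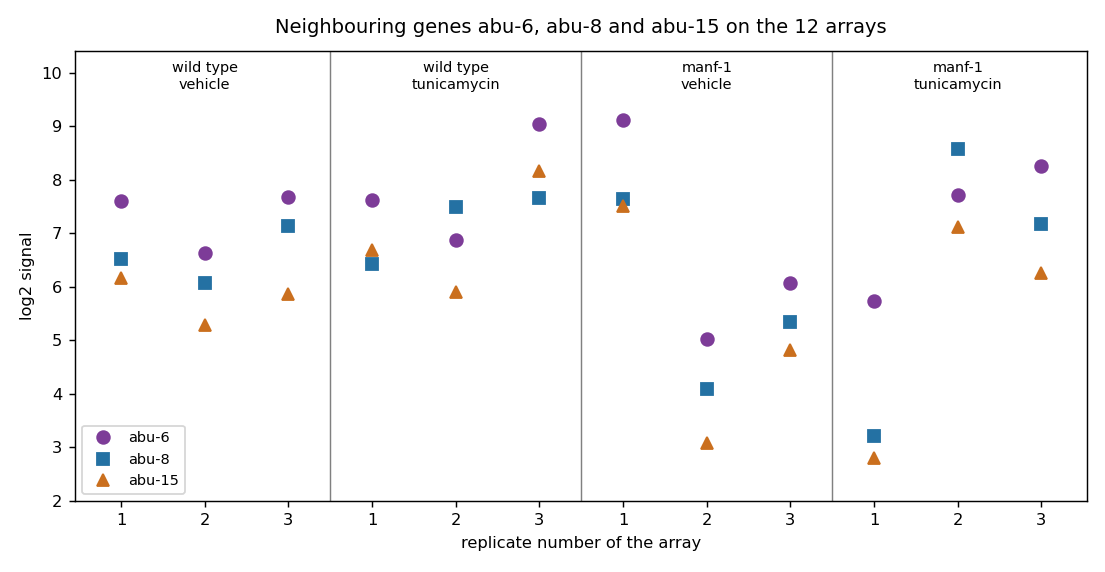
Points give the log2 signal of abu-6, abu-8 and abu-15 on each array, in 4 groups of 3. The genes move together from array to array, and mutant arrays hold the highest values of abu-6 (9.12) and abu-8 (8.57) and, on mutant vehicle array 2 and mutant tunicamycin array 1, the lowest of all 3 genes.

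Deviations from the group means of these 3 genes correlated with Pearson's r of 0.79 to 0.94 over the 12 arrays. Their probe sets are all of the cross-hybridising type and share the arrays, so the same transcripts may be read by more than 1 of them. Over 45 pairs of abu genes the median r was 0.09, over 1225 pairs of members 0.04 and over all pairs of genes 0.01. Of member pairs 2.78% exceeded 0.7, and of all gene pairs 2.54%. The closest other pairs were pqn-39 with pqn-65 (r = 0.94), abu-13 with pqn-67 (0.86) and pqn-20 with pqn-96 (0.86). In tunicamycin averaged over genotypes abu-6, abu-8 and abu-15 had values of 0.52 to 0.70, and 6 of the other 7 abu genes were below 0, with a median of -0.35. In the averaged genotype comparison they ranged from -1.08 to -0.59, and the other 7 were all below 0, with a median of -0.72. Single arrays moved the values of these 3 genes widely. Without mutant tunicamycin array 1 they were -0.21 in abu-6, -0.10 in abu-8 and -0.43 in abu-15, and without mutant vehicle array 2 -0.16, -0.48 and -0.56. Without mutant vehicle array 1 they were -1.18, -1.37 and -1.67. The median SD within groups was 0.77 for abu genes, 0.45 for pqn genes and 0.51 for all genes.

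Among pqn genes, pqn-96 rose with tunicamycin in manf-1 mutants, and it was the only member past the test in any comparison. Its signals were 7.11, 6.22 and 6.93 in wild type with vehicle and 7.57, 7.31 and 7.60 with tunicamycin. In mutants they were 6.37, 7.26 and 6.37 with vehicle and 8.06, 8.48 and 8.35 with tunicamycin. Tunicamycin and vehicle arrays did not overlap in either genotype, and the stressed mutant arrays were the highest of the 12. The change was 1.63 in mutants (3.10-fold, SE 0.35, adjusted p = 0.0368), 0.74 in wild type (SE 0.35, adjusted p = 0.627) and 1.19 averaged over genotypes (2.28-fold, SE 0.25, adjusted p = 0.0227). The difference between genotypes in that change, 0.89 (95% interval -0.16 to 1.94, adjusted p = 0.995), did not pass. A second probe set of pqn-96 changed by 0.42 in wild type, 0.77 in mutants (adjusted p = 0.520) and 0.59 averaged (adjusted p = 0.349), less than the first. On it too, tunicamycin arrays lay above vehicle arrays without overlap in each genotype. Of all genes 5.74% did so in wild type and 7.68% in mutants. The call in mutants was lost when mutant vehicle array 1 or 3, or mutant tunicamycin array 1, 2 or 3, was left out. Leaving out wild-type vehicle array 3 or wild-type tunicamycin array 1 also ended it. With these arrays left out the adjusted p lay between 0.0527 and 0.175. The call was also lost under 4 other settings, among them the replicate number as a block (0.0520 to 0.0653). The averaged call was lost without wild-type tunicamycin arrays 1 or 3, mutant vehicle arrays 1 or 3, or mutant tunicamycin arrays 2 or 3 (adjusted p between 0.0502 and 0.0722).

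With tunicamycin in wild type 0 of 40 pqn genes passed limma's test (0.397% of all genes did), and 3 were lower at an unadjusted p under 0.05, which 8.04% of all genes reached. In mutants 1 of 40 rose and 0 fell, where 0.692% of all genes rose, and averaged over genotypes 1 rose and 0 fell, where 1.19% of all genes rose. Of all 50 members 4 were higher and 4 lower without overlap in wild type, where 5.74% and 5.58% of all genes were, and 3 higher and 2 lower in mutants, where 7.68% and 9.15% were. With genotypes pooled, only pqn-96 of the members had tunicamycin arrays all above vehicle arrays, and 0 had them all below, where 1.03% and 0.747% of all genes did. With treatments pooled, 0 members separated the genotypes in either direction on the probe set used (0.083% and 0.157%). The second probe set of abu-14 did separate them. The median pqn change was -0.11 in wild type and 0.14 in mutants, against -0.02 for all genes in both. Below 0 were 25 of 40 pqn genes in wild type and 15 of 40 in mutants, against 52% and 51.9% of all genes. In the genotype comparisons and in the interaction 0 pqn genes passed. Unadjusted p under 0.05 was reached by 5 of 40 pqn genes with vehicle, 3 with tunicamycin and 6 averaged, where 5.4%, 5.8% and 6.31% of all genes reached it. For the interaction 0% of all genes passed, and an unadjusted p under 0.05 was reached by 4 pqn genes and 1 abu gene of the 50 members, against 4.71% of all genes.

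**Figure D5:**
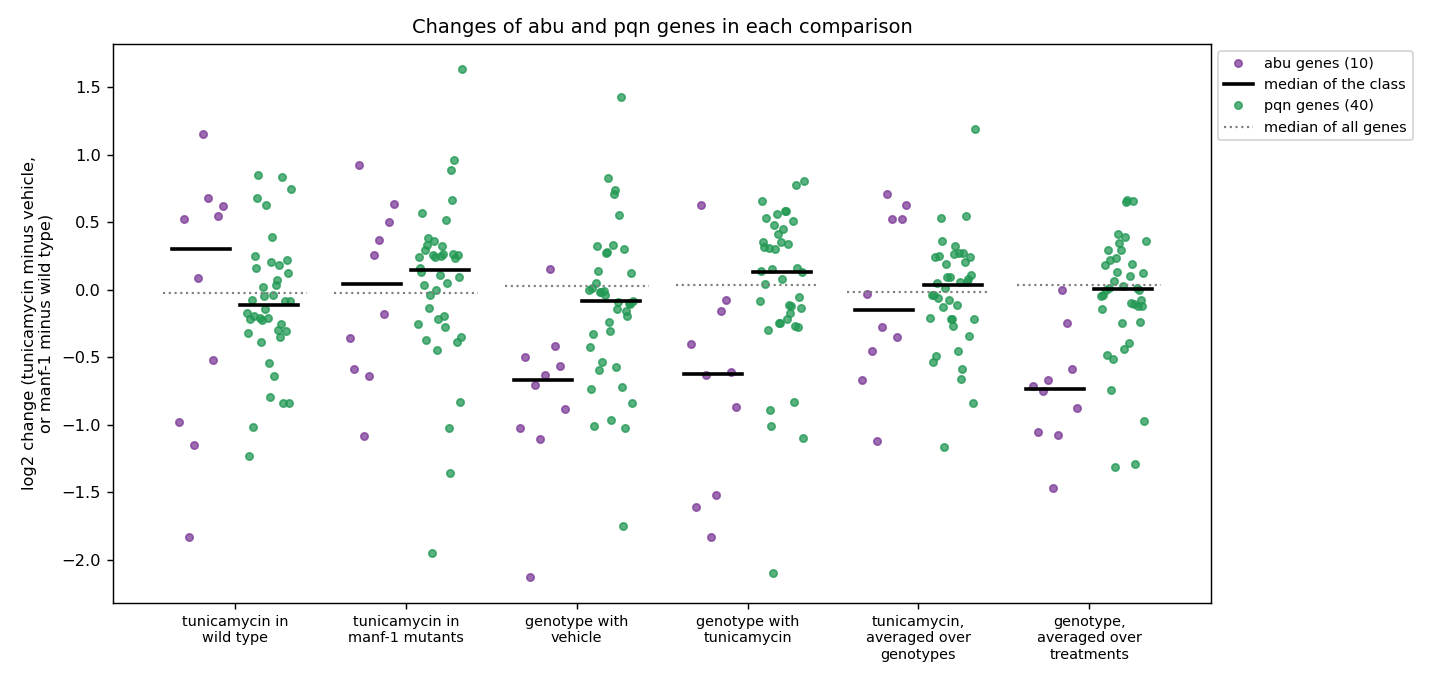
Each point is the log2 change of a member in a comparison (tunicamycin minus vehicle, or manf-1 minus wild type), with abu and pqn genes side by side, thick lines at their medians and dotted lines at the median of all genes. In the genotype comparisons the abu medians (-0.67, -0.62 and -0.73) lie below those of pqn genes, and pqn-96 is the top point for tunicamycin in mutants (1.63).

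In the other direction pqn-36 had the lowest signals in stressed mutants. It read 5.96, 7.32 and 5.70 in wild type with vehicle and 5.43, 5.66 and 6.72 with tunicamycin. Mutants read 6.61, 4.50 and 6.25 with vehicle and 3.66, 4.09 and 3.77 with tunicamycin, below all other arrays. The tunicamycin change in mutants was -1.95 (SE 0.58, adjusted p = 0.173), and the genotype difference with tunicamycin was -2.10 (SE 0.58, adjusted p = 0.589). In wild type the change was -0.39, and the interaction was -1.56 (adjusted p = 0.995). The 4 other probe sets of pqn-36 had changes of -1.67 to -1.09 in mutants. Their genotype differences with tunicamycin were -1.89 to -0.76, each without overlap between genotypes, where 5.34% of all genes were lower without overlap. Most of them, and the probe set used, are of the shared or cross-hybridising type. On the weakest of them the stressed mutant arrays read 2.35, 2.93 and 3.10, under the background limit of 3.34. In 22 of 24 settings the change in mutants did not pass, with adjusted p up to 0.502. Over all settings it ran from -2.72 to -1.15. The settings in which it passed both left out mutant vehicle array 2, which at 4.50 was the lowest of its group. Without that array alone the change in mutants was -2.59 (adjusted p = 0.0492), and without all 4 arrays numbered 2 it was -2.72 (adjusted p = 0.0489).

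The gene pqn-59, the worm counterpart of human UBAP2L, a protein of stress granules, varied little within groups. It read 10.61, 10.52 and 10.69 in wild type with vehicle, 10.79, 10.84 and 10.81 with tunicamycin, 10.74, 10.90 and 11.18 in mutants with vehicle, and 11.25, 11.28 and 11.25 with tunicamycin. Tunicamycin arrays were above vehicle arrays in each genotype, and mutants above wild type in each treatment. The averaged genotype difference was 0.39 (SE 0.11, adjusted p = 0.620) and the averaged tunicamycin change 0.26 (SE 0.11, adjusted p = 0.379). A second probe set of pqn-59 had an averaged tunicamycin change of -0.15, the other direction, and an averaged genotype difference of 0.56.

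The gene pqn-89 had tunicamycin changes of close size in both genotypes, -0.84 in wild type and -0.83 in mutants (averaged SE 0.27, adjusted p = 0.201). In wild type its tunicamycin arrays, 5.58 to 5.72, were below the vehicle arrays, 6.18 to 6.71. The genes pqn-18 and pqn-22 were lower with tunicamycin in wild type without overlap, at -1.24 (SE 0.41, adjusted p = 0.431) and -1.02 (SE 0.39, adjusted p = 0.524), and had changes of 0.16 and 0.03 in mutants. The difference of these responses was 1.40 for pqn-18 and 1.05 for pqn-22, neither past the test (adjusted p = 0.995). A second probe set of pqn-18 differed from this, with changes of -0.09 in wild type and -0.38 in mutants and an interaction of -0.29. The pqn-22 vehicle arrays of wild type, 6.64, 5.97 and 5.49, enter both its treatment and its genotype difference (-1.01 with vehicle, adjusted p = 0.905).

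Further pqn genes were named for the smallest p-values in a comparison, and none of them passed. With vehicle, pqn-51 (0.83), pqn-65 (0.74) and pqn-72 (1.43) were higher in mutants and pqn-74 (-1.75) lower as measured, at adjusted p between 0.905 and 0.945. Only pqn-51 of these had groups without overlap. Leaving out wild-type vehicle array 1 took pqn-72 to 0.86, and leaving out mutant vehicle array 2 took pqn-74 to -0.96. Further probe sets of pqn-72 gave 1.80 and 0.25. Averaged over treatments pqn-65 and pqn-62 had differences of 0.66 and 0.65, and a second probe set of pqn-62 one of -0.11. With tunicamycin pqn-24 was higher in mutants by 0.53. In mutants pqn-73 and pqn-72 had tunicamycin changes of 0.88 and -1.36, and in wild type pqn-29 and pqn-51 had changes of 0.68 and 0.63. The interaction was 1.80 for pqn-80 and -1.07 for pqn-51.

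At the other extreme pqn-11 (signals between 3.32 and 3.92), pqn-35 (6.32 to 6.98) and pqn-70 (9.26 to 10.01) hardly varied on the probe sets used. Their within-group SD was 0.17, 0.20 and 0.24. A second probe set of pqn-70 varied more, between 7.42 and 9.38, with a within-group SD of 0.64. The signals of pqn-11 reached down to the background limit of 3.34, which may hide variation. The signals of pqn-83 lay between 8.77 and 9.68, those of pqn-53 between 9.18 and 10.85. The gene pqn-41, known for a role in the death of the linker cell in males, read 6.73 to 7.76, with an averaged tunicamycin change of 0.19 and an averaged genotype difference of 0.13. The other 19 pqn genes past the filter were pqn-15, pqn-20, pqn-21, pqn-26, pqn-27, pqn-31, pqn-39, pqn-42, pqn-48, pqn-52, pqn-54, pqn-67, pqn-68, pqn-71, pqn-75, pqn-84, pqn-87, pqn-88 and pqn-94. Their averaged tunicamycin changes ran from -0.66 in pqn-71 to 0.55 in pqn-75, and their averaged genotype differences from -0.97 in pqn-94 to 0.41 in pqn-42. A second probe set of pqn-21 had an averaged tunicamycin change of 1.43 (SE 0.37, adjusted p = 0.0724), against 0.25 on the probe set used. For 19 members past the filter 30 further probe sets could be set beside the one used. Their sign matched in 15 of 30 for tunicamycin in wild type, in 24 of 30 for tunicamycin in mutants, and in 17 of 30 for the averaged genotype difference.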

How the data were processed

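The deposited table holds log2 signals of 22625 probe sets on 12 arrays, and per the submitters' processing notes MAS5 was named without a role or version. That the deposited values are log2 was read from their range, and how they were normalized is not given in the sources used here. They were used as deposited, without 77 control probe sets. Of the other 22548, 14709 were kept, each with a signal over an array's 40th percentile on 3 or more arrays. Genes were named from the platform annotation. All 58 members matched a RefSeq symbol of assembly WBcel235, and 13 further abu and pqn genes there had no probe set of their own. A gene was represented by its kept probe set with the highest mean. The 9 probe sets listing an abu or pqn gene together with other genes were not used.

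Group means were fitted with limma 3.58.1 in R 4.3.3 (lmFit, eBayes with trend, 8 residual and 5.93 prior degrees of freedom). The 7 two-sided contrasts were tunicamycin in each genotype and averaged, genotype in each treatment and averaged, and the interaction, adjusted by Benjamini-Hochberg over 14709 probe sets at 0.05. Errors are SE of log2 changes. The members, gene lists and naming rule were chosen with earlier results of these data known. The rule named members past the threshold, the 3 smallest p-values per direction and contrast, the 6 highest and 3 lowest mean signals and every abu gene. Genes and probe sets named beyond it, such as pqn-35 and pqn-41, were chosen after their values were seen. On simulated arrays the wild-type tunicamycin contrast recovered 2% of 50 probe sets changed by 1 on the log2 scale, 64% by 2 and 94% by 3. The replicate numbers were not taken as a pairing, since deviations of same-numbered arrays correlated above 0.1 in only 4 of 18 pairs. Of pairs with different numbers, 2 of 36 did, which is a smaller share. The 6 pairs numbered 2 all lay above 0, between 0.05 and 0.21. Every pair of an array numbered 2 with an array of another number lay below 0. Deviations within a group sum to 0, so the positive pairs numbered 2 largely force this, and it is not separate evidence. By the pairs numbered 2, these arrays shared part of their deviations, which a fit without a block leaves in the spread. Alternatives covered normalization, filter, offset, moderation, samples fitted, block, probe sets and left-out arrays. No sequences were printed.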

Additional observations from a re-analysis of the deposited data

How the results depend on the processing

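Each result was recomputed under 24 settings. Of 1140 values for single genes, 1115 kept direction and side of the threshold, 17 lost the call, 2 gained it and 6 changed sign. All 17 were pqn-96 and both gains pqn-36. The 6 were abu-3 in the averaged genotype comparison, at 0.023, 0.34, 0.028, 0.062, 0.19 and 0.0091 when wild-type vehicle array 1, wild-type tunicamycin array 3, mutant vehicle arrays 2 or 3, or mutant tunicamycin arrays 1 or 3 was left out, of a range of -0.21 to 0.34 over all 12 arrays left out singly. The number of members called for tunicamycin in mutants, 1, became 0 without a filter (adjusted p of pqn-96 0.0561), with only the groups compared (0.0653), with the replicate number as a block (0.0528) and without shared or cross-hybridising probe sets (0.0520). It became 2 without the arrays numbered 2, and ran from 0 to 2 with single arrays left out. For the averaged tunicamycin comparison it ran from 0 to 1. Median changes moved by less than the SD between replicates, which was 0.44 for the members' median. That SD is larger than the members' median changes themselves, and some of these changed sign. For tunicamycin in mutants the members' median was 0.14 and fell as low as -0.07. In wild type it was -0.08 and rose to 0.004, and for genotype with tunicamycin it was -0.07 and rose to 0.15. The abu median for genotype, averaged, stayed between -0.94 and -0.52 with single arrays left out and between -0.88 and -0.64 otherwise (settings for it were chosen after seeing the data). Of abu genes 9 or 10 were below 0 with single arrays left out, and 3 of 3 without shared or cross-hybridising probe sets, where fewer genes remain. Low signals near background and 3 arrays a group limit all of these.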
